A study of Homo sapiens with 3 samples.

Results

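The genes described here belong by symbol to families of enzymes that add or remove chemical groups on histones and DNA. They were taken as all gene symbols of the array platform that start with KDM, KMT, SETD, HDAC, SIRT, KAT, DNMT, TET, EZH or PRMT followed by a digit. This gave 77 of 20399 named genes, of which 75 were counted as enzyme genes and 2, KDM4A-AS1 and KMT2E-AS1, are antisense RNA genes. The catalytically inactive DNMT3L is among the 75. A gene was taken as measured where its mean log2 signal over all signal columns reached the 50th percentile of named genes, and 56 of the 75 enzyme genes and both antisense genes did so. The measured enzymes comprised 31 of 36 writers, which add a group, and 25 of 39 erasers, which remove one. A stricter setting, named histone- or DNA-acting enzymes only, left out members such as SETD6, SIRT3, SIRT5 and HDAC6 and kept 50 of the 56. It still held PRMT9 and SIRT2, which are described below by other substrates, so its name holds only in part.

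The cells were LNCaP, an established human prostate cancer line that responds to androgen. They received small interfering RNAs (siRNAs) against SHOT-RNAs, tRNA-derived fragments that are abundant in hormone-dependent cancer cells. The groups were 5'-Lys KD (5' fragment of a lysine tRNA, 20 nM siRNA), 5'-Asp KD (5' fragment of an aspartate tRNA, 20 nM) and 3'-Asp KD (3' fragment of the same tRNA, 10 nM). The control cells had received an siRNA to Renilla luciferase (R-Luc KD), and the harvest came at 72 h. RNA of each knockdown was hybridised once against that of the control on a two-colour array, so there were 3 arrays and no replicate, and no test could be made. All results are for this 1 cell line in IMEM with serum, and the targeted fragments were not analysed here. In a bulk RNA sample, fewer cells expressing a gene and less RNA per cell cannot be told apart.

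By the labels' dyes Cy3 is the knockdown and Cy5 the control on all arrays, and each ratio below is Cy3 over Cy5 on the log2 scale, centred on the array's median over 10200 measured genes. The deposited column names give no dye, and the first column of each array was taken as Cy3. With this, the names bear out the 5'-Lys array but name the first column as control on both Asp arrays. If the names were right, every sign given for an Asp array would turn. Under either reading, a gene-specific dye effect would give a gene the same Cy3 over Cy5 sign on all 3 arrays. Such an effect cannot be told apart here from a change in the knockdowns. This holds also where all Cy3 signals of a gene lay on 1 side of its Cy5 signals. The 3 arrays are different knockdowns and no replicates. The nearest measure of error is the SD of a gene's Cy5 signal between the 3 arrays, relative to the column's median. On the log2 scale it was 0.12 at the median of measured genes and 0.34 at the 95th percentile, and it ranged from 0.02 to 0.37 over the 56 enzymes. This SD covers 1 dye only and no variation between replicates of a knockdown. If the arrays share 1 control RNA it holds technical spread alone, and by the column names it would mix control and knockdown. Of 10 LNCaP markers 9 were measured, against 1 of 9 markers of other cell types, COL1A1, which lay at the threshold.

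Histone acetyltransferases (KAT) open chromatin by acetylating lysines, and deacetylases (the zinc-dependent HDACs and the NAD-dependent sirtuins, SIRT) reverse this. Lysine methylation is written by enzymes with a SET domain (KMT, SETD and EZH), arginine methylation by PRMTs, and lysine demethylases (KDM) erase it. A methyl mark activates or represses according to the lysine that carries it, so writers and erasers are not opposites in their effect on transcription. On DNA, DNMT1 copies methylation to the new strand after replication, DNMT3 enzymes set it anew, and TET enzymes oxidise it. EZH2 and KDM1A are well known in prostate cancer as partners or regulators of androgen receptor signalling.

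The promoters of DNMT1, EZH2, EZH1, SIRT1 and SIRT6 are shown because these genes, a maintenance enzyme and members of a Polycomb pair and a sirtuin pair, stood furthest apart or recurred between arrays below. Each runs 5' to 3' on the gene's strand and ends 30 bases after the transcription start, from RefSeq on GRCh38.p14. They lie at chr19:10194924-10195203 (DNMT1, minus strand), chr7:148884262-148884541 (EZH2, minus), chr17:42745011-42745290 (EZH1, minus), chr10:67884406-67884685 (SIRT1, plus) and chr19:4182534-4182813 (SIRT6, minus), and for EZH2 and SIRT6 the first of 2 listed starts was taken. Capitals mark an E2F-type motif, spelled TTTCCCGC, TTTCGCGC, TTTGCCGC or TTTGGCGC and searched on both strands.
DNMT1: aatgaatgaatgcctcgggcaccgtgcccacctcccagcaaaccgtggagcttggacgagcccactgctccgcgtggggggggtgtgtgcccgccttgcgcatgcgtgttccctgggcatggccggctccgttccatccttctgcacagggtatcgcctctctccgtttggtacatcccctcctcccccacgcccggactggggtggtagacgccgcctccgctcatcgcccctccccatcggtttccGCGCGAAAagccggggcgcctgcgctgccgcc
EZH2: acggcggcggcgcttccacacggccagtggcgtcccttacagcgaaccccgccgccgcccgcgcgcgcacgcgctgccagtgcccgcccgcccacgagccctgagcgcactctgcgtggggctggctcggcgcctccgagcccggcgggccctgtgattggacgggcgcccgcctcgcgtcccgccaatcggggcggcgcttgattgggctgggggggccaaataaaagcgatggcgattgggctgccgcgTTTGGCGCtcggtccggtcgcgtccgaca
EZH1: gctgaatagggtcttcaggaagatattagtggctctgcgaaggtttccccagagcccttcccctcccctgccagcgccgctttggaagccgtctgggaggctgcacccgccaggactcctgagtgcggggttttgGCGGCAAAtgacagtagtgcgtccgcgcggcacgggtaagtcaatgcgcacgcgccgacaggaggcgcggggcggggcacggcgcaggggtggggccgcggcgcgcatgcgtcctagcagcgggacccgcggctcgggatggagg
SIRT1: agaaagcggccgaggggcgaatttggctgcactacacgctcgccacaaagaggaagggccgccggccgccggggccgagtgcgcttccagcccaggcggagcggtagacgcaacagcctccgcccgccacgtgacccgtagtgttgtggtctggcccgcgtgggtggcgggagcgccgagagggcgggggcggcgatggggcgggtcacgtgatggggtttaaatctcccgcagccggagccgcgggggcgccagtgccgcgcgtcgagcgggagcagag
SIRT6: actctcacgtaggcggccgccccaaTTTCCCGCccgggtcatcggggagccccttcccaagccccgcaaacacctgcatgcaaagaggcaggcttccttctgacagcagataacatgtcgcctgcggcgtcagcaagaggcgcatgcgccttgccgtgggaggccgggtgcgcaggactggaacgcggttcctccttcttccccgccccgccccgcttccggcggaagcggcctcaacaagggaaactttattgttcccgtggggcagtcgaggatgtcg

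The match in DNMT1 (GCGCGAAA) begins 2 bases before the start and runs across it, and that in EZH2 (TTTGGCGC) lies directly after the start. EZH1 (GCGGCAAA) and SIRT6 (TTTCCCGC) have theirs 115 and 225 bases before the start, and the SIRT1 stretch holds none. The whole windows ran from 250 bases before to 50 after a start. In them the motif was found in 5 of 51 measured enzyme genes with a listed promoter (9.80%: DNMT1, EZH1, EZH2, PRMT7 and SIRT6). Over all 27305 genes with a listed promoter it was found in 3.99%. That wider set, also used below, was not limited to measured genes or to genes of the array, so the shares are not strictly comparable. The genes with a match include ones with ratios below 0 (DNMT1, EZH2) and above 0 (EZH1, SIRT6) on each array. Another pair of spellings, known from cell cycle promoters, was searched too. CCAAT stood in 29.4% of these enzyme genes against 39.7% of all genes, and TTTGAA, the CHR element, in 7.84% against 18.2%. The 72 enzyme windows had a median GC content of 67.7% and 28.5 CpG sites, against 58.7% and 14 over all windows.

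Few enzymes departed from the control by 1.5-fold, and none of the 56 by 2-fold. After 5'-Lys KD 2 enzymes were at least 1.5-fold higher (EZH1 and SIRT6, 3.57%, against 4.49% of all measured genes) and 5 lower (DNMT1, EZH2, HDAC2, PRMT9 and SIRT1, 8.93%, against 6.95%). On the 5'-Asp array 4 were higher (EZH1, KDM5B, KDM6B and KMT2D, 7.14%, against 3.54%) and 1 lower (KMT5A, 1.79%, against 4.35%). On the 3'-Asp array 0 were higher, against 2.30% of all genes, and 2 lower (DNMT1 and PRMT6, 3.57%, against 2.56%). At 2-fold the shares of all measured genes, higher and lower, were 0.608% and 1.35% on the 5'-Lys array, 0.363% and 0.529% on the 5'-Asp array, and 0.225% and 0.265% on the 3'-Asp array. The enzymes' counts thus lay within about 2 genes of what the shares of all genes would give for 56 genes, and the counts say nothing particular about this class.

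Of the 12 enzymes past 1.5-fold somewhere, 10 were so on 1 array and 2, DNMT1 and EZH1, on 2 arrays. The same split was not counted over all measured genes, and the arrays may share 1 control RNA. The split is therefore a listing and no result about the enzymes. Centring on all named genes lowered every ratio by 0.07 to 0.08 and moved the split of higher and lower enzymes on the 5'-Asp array to 2 and 2, and on the 3'-Asp array to 0 and 4. With the mean Cy5 signal of the 3 arrays as the control instead, there were 0 higher and 1 lower on the 5'-Asp array, with none of the 5 named above past 1.5-fold, and 3 higher and 4 lower on the 5'-Lys array.

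**Figure D1:**
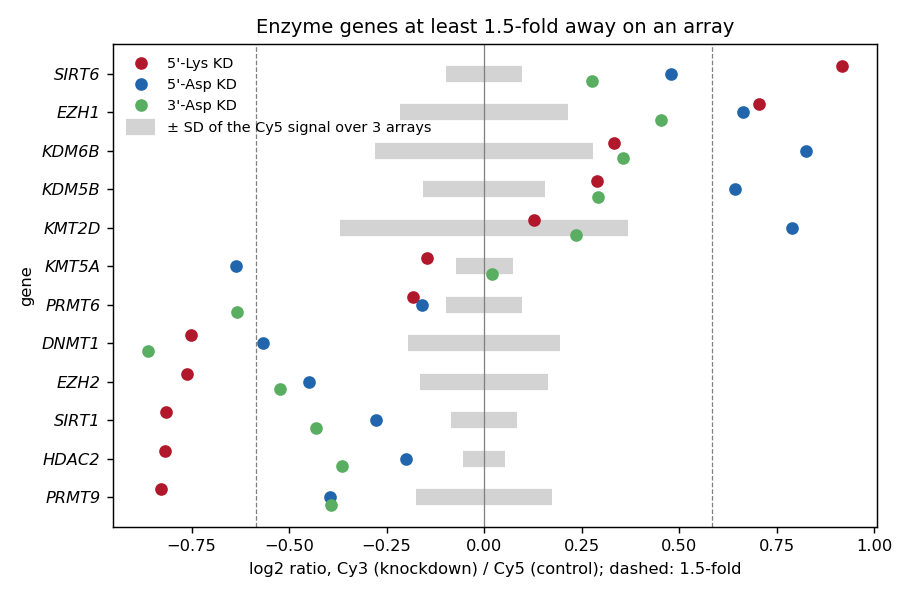
Log2 ratio of knockdown (Cy3) over control (Cy5) for the 12 enzyme genes at least 1.5-fold away from the control on at least 1 array, with 1 point per array. Grey bars span plus and minus the SD of the gene's Cy5 signal between the 3 arrays, and dashed lines mark 1.5-fold. The SD covers 1 dye and no replicate of a knockdown. DNMT1, EZH2, SIRT1 and PRMT9 lie left of 0 and SIRT6 and EZH1 right of 0 on all arrays, by the labels' dyes.

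DNMT1 was lower after 5'-Lys KD, and by the labels' dyes also in both Asp knockdowns. Its signal was 1459 with 5'-Lys KD against 2429 in the control, 1822 with 5'-Asp KD against 2665, and 1418 with 3'-Asp KD against 2572, in the arrays' arbitrary units. These are log2 ratios of -0.75, -0.57 and -0.86, or 1.68-, 1.48- and 1.82-fold lower, with a Cy5 SD of 0.19. The highest Cy3 signal lay below the lowest Cy5 signal, on the gene's 1 probe. By the column names the Asp ratios would be 0.57 and 0.86, with DNMT1 higher in those knockdowns. Against the mean Cy5 signal the ratios were -0.94, -0.44 and -0.80. DNMT3A, a de novo methyltransferase, had -0.05, -0.21 and 0.18, although its 3 probes differed by an SD over 0.5 on the 5'-Asp array. The catalytically inactive DNMT3L was not measured. DNMT3B fell below the signal threshold as the mean of 2 probes that disagreed in brightness. One had a signal of 1115 with 3'-Asp KD against 664 in the control and gave 0.49, 0.25 and 0.75. The other had 3.46 against 2.72 there, where the negative control probe had 3.88 and 2.20.

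Proteins that work with DNMT1 did not all move alike. UHRF1, which brings DNMT1 to newly replicated DNA, had a signal of 449 after 5'-Lys KD against 698 in the control, a log2 ratio of -0.65 over 2 probes. On the Asp arrays it lay above 0, at 0.22 and 0.06. PCNA, the replication clamp that also tethers DNMT1, had -0.62, -1.07 and -0.32. TDG, the glycosylase that removes oxidised methylcytosine, had -0.34, -0.66 and 0.01. Of 10 measured genes in this list of methylation maintenance and methyl-CpG binding, 0 were higher and 2 lower at 1.5-fold after 5'-Lys KD (UHRF1 and PCNA) and on the 5'-Asp array (PCNA and TDG), and none either way on the 3'-Asp array. Of all measured genes 6.95% and 4.35% were lower on the first 2 of these arrays. The list's medians were -0.30, -0.16 and 0.01, beside a median of 0 for all measured genes by construction.

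Among the lysine methyltransferases the Polycomb pair EZH2 and EZH1 lay on opposite sides. EZH2, the catalytic subunit of Polycomb repressive complex 2 (PRC2) in dividing cells, had a signal of 2548 with 5'-Lys KD against 4270 in the control, 2157 with 5'-Asp KD against 2909, and 2210 with 3'-Asp KD against 3169. EZH1, its paralogue, which prevails in non-dividing tissue, had 597 against 362, 370 against 231 and 416 against 304. All 3 Cy3 signals of EZH2 were below all of its Cy5 signals, and those of EZH1 lay above all of its own, also relative to the column medians. The log2 ratios were -0.76, -0.45 and -0.52 for EZH2 and 0.70, 0.66 and 0.45 for EZH1, with Cy5 SDs of 0.16 and 0.22. By the column names the Asp ratios would be 0.45 and 0.52 for EZH2 and -0.66 and -0.45 for EZH1. The pair would then lie the other way round there than after 5'-Lys KD, which could not be told apart from a gene-specific dye effect.

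The EZH2 ratio was thus lower than that of EZH1 by 1.47 on the log2 scale after 5'-Lys KD (2.76-fold apart), by 1.11 on the 5'-Asp array (2.16-fold) and by 0.98 on the 3'-Asp array (1.97-fold). Such a difference within an array does not depend on its centring, and each gene rests on 1 probe. Relative to the column's median, the log2 Cy3 signal of EZH2 was nearly equal on the arrays, at 1.23, 1.22 and 1.20. Its Cy5 signal was 1.99, 1.69 and 1.74, so the lower ratio on the 5'-Lys array came with a higher Cy5 signal there, and against the mean Cy5 signal it was -0.55 and under 1.5-fold.

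**Figure D2:**
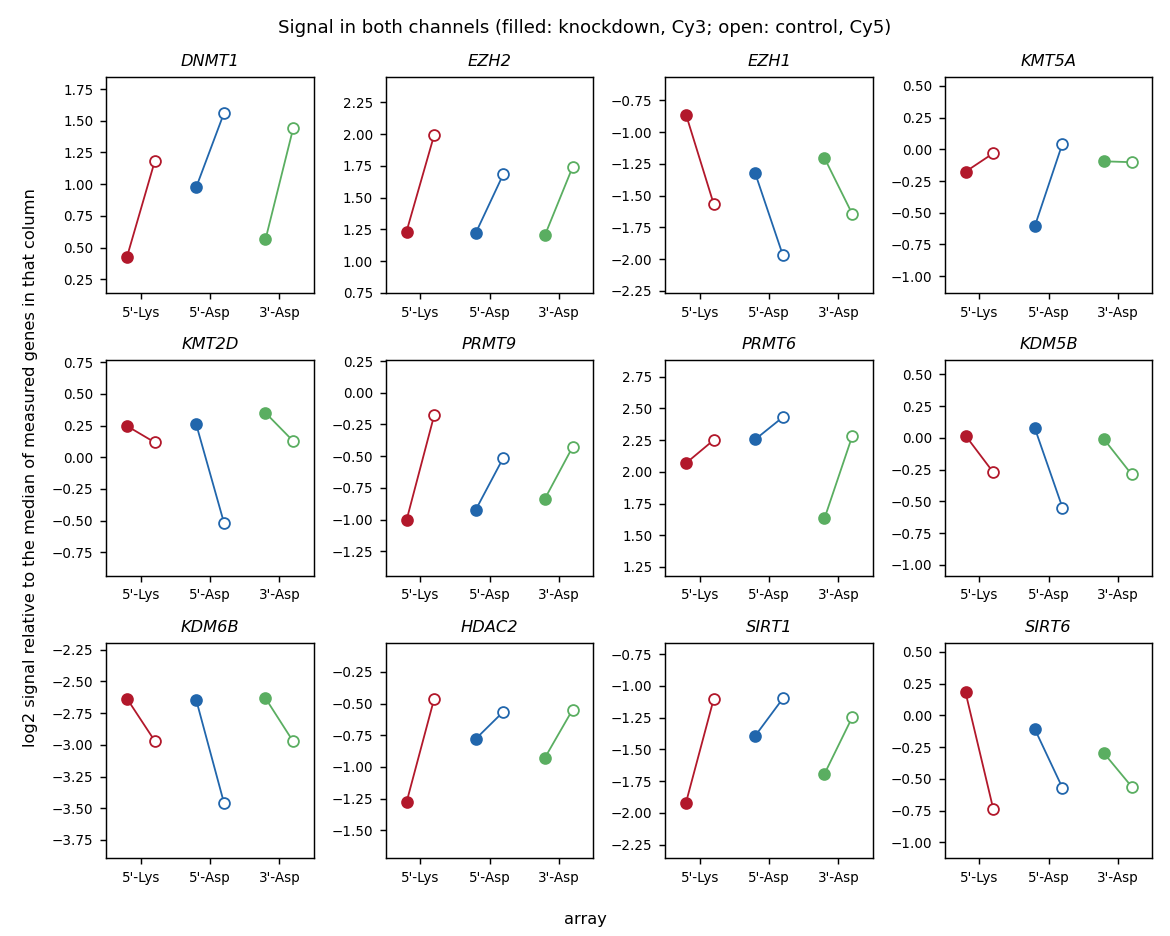
Log2 signal, relative to the median of measured genes in the same column, of 12 enzyme genes by array, knockdown (Cy3, filled) left of control (Cy5, open), with a line joining the channels of 1 array. The lines of DNMT1 and EZH2 show a lower Cy3 than Cy5 signal and those of EZH1 and SIRT6 a higher one on all 3 arrays.

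Of the 10 measured PRC2 partners, SUZ12, the core subunit that stabilises EZH2, had -0.68 after 5'-Lys KD and -0.19 and -0.34 on the Asp arrays. Its knockdown signal on the 5'-Lys array was 2827, against 4486 in the control. EPOP, an accessory subunit, had -0.61, 0.03 and 0.02, and JARID2, which helps to target the complex, 0.07, 0.08 and 0.59. The counts at 1.5-fold were 0 higher and 2 lower on the 5'-Lys array, 0 and 0 on the 5'-Asp array, and 1 and 0 on the 3'-Asp array, beside 6.95% of all genes lower on the 5'-Lys array and 2.30% higher on the 3'-Asp array. The medians were -0.32, -0.07 and 0.02.

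The COMPASS methyltransferases, SETD1A, SETD1B and KMT2A to KMT2D, methylate histone H3 at promoters and enhancers. The 6 had medians of 0.13 on the 5'-Lys array, 0.32 on the 5'-Asp array and 0.03 on the 3'-Asp array. Above 0 were 5, 5 and 3 of them, beside 5100 of all 10200 measured genes on each array. On the 5'-Asp array the 6 ran from -0.06 for SETD1B to 0.79 for KMT2D. KMT2D, an enhancer methyltransferase, had a signal of 1286 with 5'-Lys KD against 1163 in the control, 1107 with 5'-Asp KD against 632, and 1222 with 3'-Asp KD against 1035. The value that stands out is the low Cy5 signal on the 5'-Asp array, which is the control by the dyes and the knockdown by the column names. Relative to the column's median, log2 Cy3 was 0.25, 0.26 and 0.35 and log2 Cy5 0.12, -0.52 and 0.13. KMT2A, fused to other genes in leukaemia, likewise had log2 Cy3 of -2.04, -2.08 and -2.16 and log2 Cy5 of -2.18, -2.60 and -2.21. These are means of 4 probes that differed. The brightest KMT2A probe had 2306 against 2140 on the 5'-Asp array and gave -0.34, 0.09 and -0.21. The dimmer ones gave 0.83, 0.81 and 0.40 on the 5'-Asp array. Against the mean Cy5 signal the KMT2D ratio on the 5'-Asp array was 0.36 in place of 0.79. By the column names that ratio would be -0.79, lower in the knockdown, and the mean Cy5 signal would mix knockdown and control.

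KMT5A, listed by the platform under its former symbol SETD8, monomethylates histone H4 and is degraded during DNA replication. Its signal was 959 with 5'-Lys KD against 1049 in the control, 608 with 5'-Asp KD against 932, and 898 with 3'-Asp KD against 883. The Cy3 signal of the 5'-Asp array alone was low, with a ratio of -0.64 against -0.15 and 0.02 on the other arrays, a Cy5 SD of 0.07, and 2 probes that differed by an SD of 0.07. SETD2, which methylates histone H3 along transcribed genes, had 0.07, 0.20 and -0.12. The 16 measured lysine methyltransferases had medians of 0.09, 0.07 and -0.04.

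COMPASS subunits gave medians of 0.00, -0.24 and -0.07 over 9 measured genes. Only CXXC1, the subunit that binds unmethylated CpG sites, passed 1.5-fold, on the 5'-Lys array, where 6.95% of all measured genes were lower. Its signal was 480 with 5'-Lys KD against 1294 in the control, a ratio of -1.45, and it had -0.29 and -0.20 on the Asp arrays. CXXC1 rests on 1 probe.

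Among the 7 measured arginine methyltransferases the medians were -0.12, -0.08 and -0.30. PRMT9, which methylates a splicing factor, had a signal of 540 with 5'-Lys KD against 949 in the control, 488 with 5'-Asp KD against 634, and 538 with 3'-Asp KD against 705. Its ratios were -0.83, -0.40 and -0.39 with a Cy5 SD of 0.17, and on its 1 probe every Cy3 signal was below every Cy5 signal. PRMT6, which writes asymmetric dimethylarginine on histone H3, had 4547 against 5102, 4420 against 4876 and 2974 against 4602. Only the Cy3 signal of the 3'-Asp array stood apart there, with a ratio of -0.63 beside -0.18 and -0.16 and a Cy5 SD of 0.10. PRMT5, the main enzyme for symmetric dimethylarginine, had -0.26, -0.40 and -0.30, and PRMT1, the main asymmetric one, 0.31, 0.16 and 0.13. PRMT8 was not measured.

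No acetyltransferase named by the pattern reached 1.5-fold on any array, and the 6 measured ones had medians of -0.09, -0.15 and -0.18. KAT7, which acetylates histones at replication origins, had -0.39, -0.20 and -0.50. KAT2A, of the SAGA coactivator, had -0.31, -0.33 and -0.38, and its paralogue KAT2B -0.07, -0.10 and -0.26. KAT5, of the NuA4 complex, had 0.14, -0.37 and 0.14, and KAT8, which acetylates histone H4, 0.35, -0.01 and 0.10. The 25 measured subunits of acetyltransferase complexes also had no member past 1.5-fold, with medians of -0.07, -0.01 and -0.04. Of all measured genes 4.49% were higher and 6.95% lower on the 5'-Lys array, and 3.54% and 4.35% on the 5'-Asp array. The shares on the 3'-Asp array were 2.30% and 2.56%. At such shares few of 6 or 25 genes would pass, so these counts say little about either set.

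Among the erasers, 11 of 18 lysine demethylases were measured, with medians of 0.12, 0.25 and 0.20, and 6, 10 and 9 of them lay above 0. Through the centring, 5100 of all 10200 measured genes lay above 0 on each array. On the Asp arrays the demethylase medians by the column names would be -0.25 and -0.20, with 1 and 2 demethylases above 0. Over all 18 genes the medians were -0.02, 0.17 and 0.10 with the centring kept, and -0.10, 0.08 and 0.03 when the centre was also taken over all named genes. KDM5B, which removes the methyl mark of active promoters, had a signal of 1098 with 5'-Lys KD against 889 in the control, 977 with 5'-Asp KD against 618, and 952 with 3'-Asp KD against 776. KDM6B, which removes the Polycomb mark that EZH2 writes, had 174 against 137, 148 against 82.3 and 155 against 121. All Cy3 signals of both genes lay above all of their Cy5 signals, with 1 probe for KDM6B. The ratios were 0.29, 0.64 and 0.29 for KDM5B, with 2 probes that gave the same value on the 5'-Asp array to 2 decimals, and 0.33, 0.83 and 0.36 for KDM6B, whose mean log2 signal of 7.05 lay just over the threshold of 7.03.

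As for KMT2D, the Cy5 signal of the 5'-Asp array was the low value of both genes, and it is the knockdown's if the column names hold. Relative to the column's median, log2 Cy3 of KDM5B was 0.02, 0.08 and -0.01 on the arrays, and log2 Cy5 was -0.27, -0.55 and -0.29. For KDM6B log2 Cy3 was -2.64, -2.65 and -2.63, and log2 Cy5 -2.97, -3.46 and -2.97. Against the mean Cy5 signal the 5'-Asp ratios were 0.46 and 0.57, both short of 1.5-fold, which is 0.58 on this scale. Within the array they would be -0.64 and -0.83 by the column names.

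The Y-encoded KDM5D had 0.58, 0.27 and 0.25, just inside 1.5-fold on the 5'-Lys array, and its X-encoded homologue KDM5C 0.48, 0.20 and 0.37. The 2 probes of KDM5C differed by an SD over 0.5 on the 5'-Asp array. The brighter probe, with 1430 against 844 on the 5'-Lys array, gave 0.74, 0.57 and 0.41, and so passed 1.5-fold there. The dimmer one, with 38.2 against 32.4, gave 0.22, -0.16 and 0.34. KDM1A, the flavin-dependent demethylase LSD1, had -0.08, -0.06 and 0.10. KDM4A had -0.13, 0.25 and 0.07, KDM4B -0.16, 0.11 and -0.08, and KDM6A, the paralogue of KDM6B, -0.06, 0.09 and -0.02. These 4 lay within 0.25 of 0 on all arrays. The antisense RNA KDM4A-AS1 had 0.43, -0.82 and -0.25 from 1 probe, and KMT2E-AS1 0.22, 0.07 and 0.20. KDM3A and KDM4C, both known as coactivators of the androgen receptor, were not measured. Of the 3 probes of KDM4C, however, the brightest had 556 with 5'-Lys KD against 493 in the control and gave 0.16, 0.25 and 0.15.

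**Figure D3:**
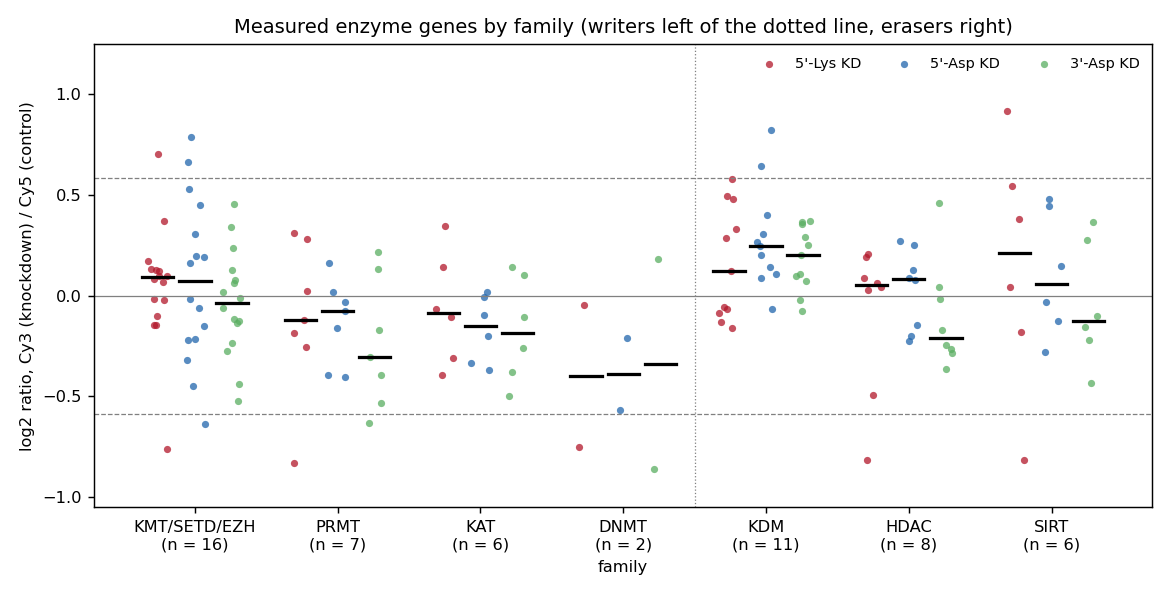
Log2 ratio of knockdown (Cy3) over control (Cy5) of each measured enzyme gene by family, 1 point per gene and array, with horizontal bars at the family medians and dashed lines at 1.5-fold. By the labels' dyes demethylases (KDM) lie mostly above 0 on both Asp arrays, and DNMT1, EZH2, PRMT9 and SIRT1 are among the lowest points after 5'-Lys KD.

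Of the 8 measured zinc-dependent deacetylases only HDAC2, a subunit of the SIN3 and NuRD corepressors, passed 1.5-fold, and its probes disagreed. HDAC2 did so on the 5'-Lys array, where 6.95% of all measured genes were lower. Averaged, its signal was 447 with 5'-Lys KD against 779 in the control, 540 with 5'-Asp KD against 612, and 505 with 3'-Asp KD against 649, with ratios of -0.82, -0.20 and -0.36. One probe had 9724 against 10048 on the 5'-Lys array and gave -0.06, -0.33 and 0.09. The other had 20.5 against 60.3 there, where the negative control probe had 4.59 and 2.81, and gave -1.57, -0.07 and -0.82. The 5'-Lys value of HDAC2 therefore comes from the second probe. HDAC1, its close paralogue, had 0.09, 0.08 and -0.02, HDAC3, of the NCoR corepressor, 0.03, -0.14 and -0.29, and HDAC11 0.19, 0.25 and 0.46. The family medians were 0.05, 0.08 and -0.21.

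Deacetylase partners included genes further from 0 than the enzymes. MTA1, a NuRD subunit, had a signal of 9802 with 5'-Lys KD against 5042 in the control, 6211 with 5'-Asp KD against 3648, and 7131 with 3'-Asp KD against 5165, with ratios of 0.94, 0.75 and 0.46. Its paralogue MTA2 had 2498 against 1613, 2330 against 1373 and 2013 against 1428, or 0.61, 0.75 and 0.49. The Cy3 signals of both exceeded all of their Cy5 signals, and each gene rests on 1 probe. The SIN3 scaffold SIN3B had 0.29, 0.80 and 0.29, and RCOR2, of the CoREST complex, 0.38, 0.63 and 0.11. Of the 21 measured corepressor genes 2 were higher and 0 lower after 5'-Lys KD, 4 and 0 on the 5'-Asp array, and 0 and 0 on the 3'-Asp array, with medians of 0.04, 0.11 and 0.01. Of all measured genes 4.49%, 3.54% and 2.30% were higher. On the 5'-Asp array MTA2 alone of the 4 kept 1.5-fold against the mean Cy5 signal (0.73), beside 0.47 for MTA1, 0.47 for SIN3B and 0.40 for RCOR2.

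Of the paralogue pairs examined, the sirtuins SIRT1 and SIRT6 were the furthest apart on the 5'-Lys array. SIRT1, a nuclear deacetylase that also acts on p53, had a signal of 287 with 5'-Lys KD against 499 in the control, 352 with 5'-Asp KD against 422, and 297 with 3'-Asp KD against 399. SIRT6, a chromatin deacetylase with a role in DNA repair, had 1231 against 644, 859 against 609 and 780 against 642. All Cy3 signals of SIRT1 were below, and all of SIRT6 above, the gene's own Cy5 signals, and each gene rests on 1 probe. The ratios were -0.82, -0.28 and -0.43 for SIRT1 and 0.92, 0.48 and 0.28 for SIRT6, with Cy5 SDs of 0.08 and 0.10. The Asp ratios by the column names would be 0.28 and 0.43 for SIRT1 and -0.48 and -0.28 for SIRT6.

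SIRT6 had the highest ratio of all measured enzymes on the 5'-Lys array, and its Cy3 signal relative to the column's median was 0.18 there, beside -0.11 and -0.30 on the other arrays. The SIRT1 ratio was lower than that of SIRT6 by 1.73 after 5'-Lys KD (3.33-fold apart), by 0.76 on the 5'-Asp array (1.69-fold) and by 0.71 on the 3'-Asp array (1.63-fold). SIRT2, the mainly cytoplasmic tubulin deacetylase, had 0.54, 0.45 and 0.37. The 6 measured sirtuins had medians of 0.21, 0.06 and -0.13. None of the 3 TET genes reached the signal threshold as a mean of its probes, so DNA demethylation was counted here only through TDG. TET2 has 4 probes, and the brightest had 484 with 3'-Asp KD against 356 in the control. This probe gave 0.16, 0.17 and 0.44 on the arrays.

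The median of all writers lay slightly below that of all erasers on each array by the labels' dyes, but the families did not all follow this. The 31 writers had median ratios of -0.02, -0.08 and -0.12, and the 25 erasers 0.06, 0.14 and 0.05. The differences, writers minus erasers, were -0.08, -0.22 and -0.16, and no test of these differences could be made. Against the mean Cy5 signal the 5'-Lys difference was -0.0013. Demethylases had the highest eraser median on both Asp arrays (0.25 and 0.20). On the 3'-Asp array the HDAC and sirtuin medians (-0.21 and -0.13) lay below the writers' median, and that of the lysine methyltransferases (-0.04) above it. In the stricter setting of 50 genes, which kept PRMT9 and SIRT2, the differences were -0.10, -0.21 and -0.17. Above 0 were 15, 11 and 12 of the 31 writers and 16, 18 and 13 of the 25 erasers. Of all 10200 measured genes 5100 lay above 0 on each array through the centring. The middle 50% of writers ran from -0.15 to 0.13, from -0.27 to 0.16 and from -0.34 to 0.12, and that of erasers from -0.08 to 0.33, from -0.03 to 0.27 and from -0.17 to 0.28. The classes overlapped for most of their range, and the arrays may share 1 control RNA, so the 3 differences are not independent. By the column names the differences on the Asp arrays would be 0.22 and 0.16.

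**Figure D4:**
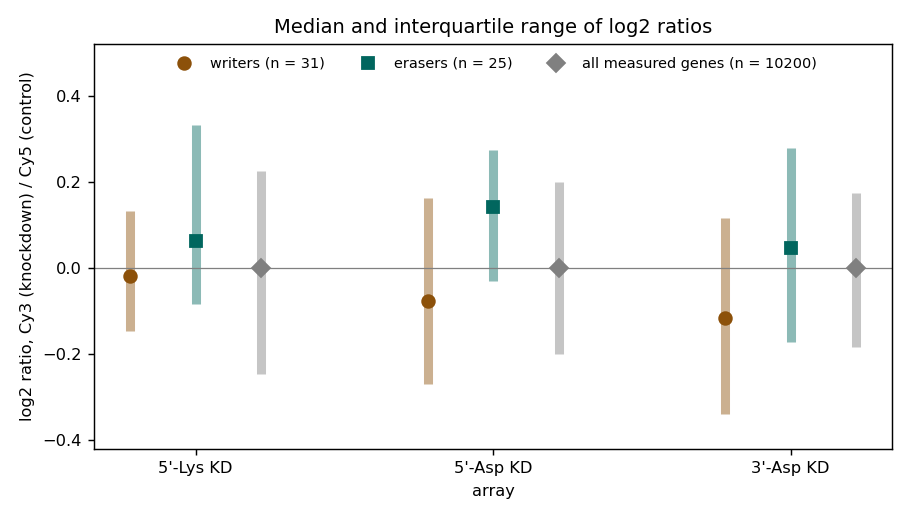
Median (symbol) and interquartile range (bar) of the log2 ratios of knockdown (Cy3) over control (Cy5) on each array for the 31 measured writers, the 25 measured erasers and all 10200 measured genes. The ranges of the classes overlap on all 3 arrays and the writers' median lies below the erasers' by 0.08, 0.22 and 0.16.

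Chromatin enzymes whose symbols fall outside the pattern were counted in the same way. Of 27 measured, 1 was higher and 1 lower at 1.5-fold after 5'-Lys KD, 1 higher and 0 lower on the 5'-Asp array, and 0 either way on the 3'-Asp array, with medians of -0.04, 0.02 and 0.07. Over all genes 4.49% were higher and 6.95% lower on the 5'-Lys array, and 3.54% and 4.35% on the 5'-Asp array. KMT5C, which writes the heterochromatin mark on histone H4 after KMT5A, had a signal of 2108 with 5'-Lys KD against 1201 in the control, and ratios of 0.80, 0.57 and 0.42. NSD2, which dimethylates histone H3, had -0.67, -0.37 and -0.42 over 5 probes. EP300, the coactivator acetyltransferase, had 0.56, 0.59 and 0.46, and 0.31 on the 5'-Asp array against the mean Cy5 signal.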

How the data were processed

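Total RNA, extracted with TRIzol per the labels' protocols, was hybridised on 3 two-colour arrays of LNCaP cells by a service company, with n = 1 per knockdown. The deposited tables hold linear intensity values of 34183 probes in 2 columns per array, called raw per the file headers, although both column medians are close and all values positive. The feature extraction software is not stated in the labels or file headers. The deposited series values are a score, the signed fold of the first over the second column, and were used as an alternative only.

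Intensities were used as given. Of the probes 28048 had 1 symbol in the platform annotation of 2015, 0 several and 6135 none (control probes included), and 25515 were set to current RefSeq names through their accession. Probes of 1 gene were averaged on the log2 scale. Genes with a mean at or above the 50th percentile were measured, ratios were centred per array on the median of these genes, and 1.5-fold was the threshold. DNMT3B, TET2 and KDM4C fell below that percentile as means of their probes, although each had a brighter probe above it. The number of arrays limits the precision, and gene-specific dye effects cannot be removed with 1 dye orientation. On negative control probes Cy3 and Cy5 were 4.59 and 2.81 (5'-Lys), 4.10 and 2.36 (5'-Asp), and 3.88 and 2.20 (3'-Asp), so ratios of dim genes can lean upwards. The 10 spike-in probes had Pearson correlations of 0.999 or more between arrays, so the first column is the same dye on each. Of the 56 measured enzymes 31 rest on 1 probe.

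The members and lists were chosen with earlier results of these data known. Named are enzymes past 1.5-fold on any array, the highest and lowest of each family per array, a set of well-known enzymes, and partner genes past 1.5-fold. SETD1B, KMT2E-AS1 and the paralogue pairs were chosen after their values were seen. Other settings tried were loess within arrays (limma 3.58.1 in R 4.3.3), normexp with an offset of 50, the mean Cy5 signal after Aquantile scaling, the deposited folds, other signal filters, the brightest probe, other centring, a 2-fold threshold, other memberships and the column-name direction. With no filter the centre also moved to all named genes, so that setting was added with the centring kept. The centring and calling were tested on simulated arrays with seeded changes larger than that of any measured enzyme here. The simulation held no gene-specific dye effect, no averaging of probes and no doubt about the dyes, so it says nothing about these. All other steps used pandas 2.3.3 and numpy 2.4.6 under Python 3.11.15, and promoters of 69 enzyme genes were matched in RefSeq (GRCh38.p14).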

Additional observations from a re-analysis of the deposited data

How the results depend on the processing

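No paired analysis was possible because each knockdown has 1 array and no test. Counts of enzymes past 1.5-fold, higher and lower, were 2 and 5 (5'-Lys), 4 and 1 (5'-Asp) and 0 and 2 (3'-Asp). Within-array loess and the deposited folds kept all of these genes. With no filter on signal (75 genes), which also moves the centre to all named genes, the counts moved to 5 and 8 on the 5'-Lys array, and lower genes to 3 on the 5'-Asp array. That setting gave 2 higher and 4 lower on the 3'-Asp array. With no filter but the centring kept, chosen after the data were seen, all of the genes past 1.5-fold stayed so, and the counts were 5 and 5, 6 and 1, and 2 and 2. A filter at the 75th percentile (17 genes) gave 0 and 2 for 5'-Lys and 1 and 0 for 5'-Asp. At 2-fold all counts were 0. The brightest probe gave 4 higher for 5'-Lys and 1 higher for 3'-Asp, and lost HDAC2 on the 5'-Lys array (-0.07) and, through its filter, KDM6B on the 5'-Asp array (0.81). Normexp also lost HDAC2 on the 5'-Lys array (-0.38). On the 5'-Asp array normexp left 2 higher, without EZH1 (0.57) and KDM6B (0.56), the mean Cy5 signal left 0 higher, and centring on all named genes gave 2 higher and 2 lower. The mean Cy5 signal lost EZH2 on the 5'-Lys array (-0.55). Centring on all named genes gave 4 lower for 3'-Asp. Apart from the column-name direction, no setting turned the sign of a gene past 1.5-fold or of the writer minus eraser difference, which ran from -0.16 to -0.0013 (5'-Lys), -0.27 to -0.19 (5'-Asp) and -0.21 to -0.08 (3'-Asp). By the column names the counts would be 1 higher and 4 lower on the 5'-Asp array and 2 higher and 0 lower on the 3'-Asp array, with writer minus eraser differences of 0.22 and 0.16. The 5'-Asp ratios would then be -0.66 for EZH1, -0.64 for KDM5B, -0.83 for KDM6B, -0.79 for KMT2D, 0.64 for KMT5A, 0.82 for KDM4A-AS1, -0.59 for EP300, -0.75 for MTA1, -0.75 for MTA2, -0.63 for RCOR2, -0.80 for SIN3B, 1.07 for PCNA and 0.66 for TDG. The 3'-Asp ratios would be 0.86 for DNMT1, 0.63 for PRMT6 and -0.59 for JARID2. The cause of these moves was not tested, beyond the genes a filter counts and the shift of 0.07 to 0.08 in the centre. Leaving out enzymes whose probes disagreed, a setting added after the data were seen, gave 2 and 4 for 5'-Lys, with HDAC2 left out, and the same counts on the Asp arrays. Dim genes are limited by signal over background.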
